A study of Mus musculus with 6 samples.

Results

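The mitochondrial ATP synthase and the vacuolar proton pump (V-ATPase) are encoded by genes whose symbols start with Atp5, Atp6v or Atp6ap. Selecting those symbols and leaving out names with -ps gave 44 of the 55414 genes in a table of mouse hippocampal RNA, 18 for ATP synthase and 26 for the V-ATPase. The table holds 6 libraries of total RNA from hippocampus, 3 labelled CerM and 3 labelled vehicle. What CerM stands for is not given in the labels, nor are strain, sex, age, dose or duration. The libraries are numbered as biological replicates, but whether each came from a separate mouse is not stated, and a p-value here reflects only how much these libraries varied. The series title concerns ceramides, corticosterone-induced depression and mitochondria, and the design compares CerM with vehicle.

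ATP synthase sits in the inner mitochondrial membrane. Protons flowing through its Fo part turn a ring of c subunits and a central stalk, and the F1 head uses that rotation to make ATP. The V-ATPase is built on the same plan and runs the other way: its V1 head burns ATP to turn a proteolipid ring in V0, which acidifies lysosomes, endosomes and, in neurons, the synaptic vesicles that load transmitter with the resulting gradient.

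Some libraries stood apart in tissue makeup. All 8 markers of hippocampal neurons were detected in every library. The hippocampal markers apart from Wfs1 were lowest in vehicle replicate 1, among them Prox1 and Fibcd1 (8.53 and 32.4 TPM). Wfs1 was at 59.9 TPM there and 51.8 to 68.5 TPM elsewhere. The same library had the highest neocortex marker sum (311 TPM, against 167 to 177 in the other 5 libraries). Of that sum Lamp5 made up 150 TPM (41.0 to 50.7 TPM elsewhere), while Bcl11b of the same list was lowest there (13.6 TPM). Markers of fat summed to 773 TPM in CerM replicate 3 and to 1.67 to 2.66 TPM elsewhere. Vehicle replicate 1 also had the highest pituitary marker sum (203 TPM, against 7.44 to 92.7) and the lowest sums for oligodendrocytes (3292 TPM, against 5070 to 6134) and ependyma (24.9 TPM, against 72.3 to 106). All 5 oligodendrocyte markers had a log2 fold change above 0 (median 0.35). Choroid plexus markers were high in CerM replicates 1 and 3 and in vehicle replicate 3.

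No subunit of either machine passed the test of CerM against vehicle. Groups did not overlap in 12 of 37 tested subunit genes, all with lower values in CerM, beside 4.04% of all tested genes lower and 3.26% higher without overlap. Among the 1480 tested genes at a mean of 100 TPM or more, 175 were lower and 4 higher without overlap, and 32 of the 37 subunit genes, the 12 included, are at that level. Atp5md, a small membrane subunit of ATP synthase, had 1216, 1086 and 1163 TPM in CerM libraries, against 1542, 1360 and 1427 TPM in vehicle libraries. Atp5b, the catalytic beta subunit, had 1156, 1245 and 1134 TPM in CerM, against 1239, 1173 and 1207 TPM in vehicle. TPM is a transcript level per length, set relative to the sum of a library. A gene counted as tested at a mean of at least 1 TPM, which kept 37 of the 44 members. Of all 14916 tested genes, 0 (0%) passed limma at an adjusted p below 0.05, and so 0 members did. The smallest adjusted p among members was 0.989. With any 1 library left out limma called 1 gene, or 8 without CerM replicate 3, and no member was among them.

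Of the 34 members with a promoter window in the RefSeq table for build GRCm38.p6, stretches of 150 bases before the start site are shown for 5, because they carry the motifs that were counted over both machines. Capitals mark the palindromic NRF1 core in Atp5k, Atp5g2 and Atp6v1e1, its form with any base at one centre position in Atp5h, and the core of the CLEAR element (TCACGTGA) in Atp6v1a. NRF1 is a regulator of nuclear genes for mitochondria, and CLEAR elements are bound by TFEB, a regulator of lysosomal genes.
Atp5k (chr5:108434400-108434549, minus strand): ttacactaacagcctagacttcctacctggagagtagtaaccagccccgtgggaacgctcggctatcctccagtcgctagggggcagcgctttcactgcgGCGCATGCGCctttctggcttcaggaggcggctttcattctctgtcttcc
Atp5g2 (chr15:102671048-102671197, minus strand): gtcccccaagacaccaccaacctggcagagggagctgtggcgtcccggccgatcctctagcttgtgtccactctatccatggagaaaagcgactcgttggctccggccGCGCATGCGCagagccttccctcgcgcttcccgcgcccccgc
Atp5h (chr11:115419920-115420069, minus strand): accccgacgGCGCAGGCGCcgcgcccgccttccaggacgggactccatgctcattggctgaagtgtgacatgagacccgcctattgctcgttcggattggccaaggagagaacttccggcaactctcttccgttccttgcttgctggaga
Atp6v1e1 (chr6:120822699-120822848, minus strand): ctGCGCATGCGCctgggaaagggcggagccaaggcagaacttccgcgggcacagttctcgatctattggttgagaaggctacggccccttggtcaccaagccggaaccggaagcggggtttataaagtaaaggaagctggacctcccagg
Atp6v1a (chr16:44139260-44139409, minus strand): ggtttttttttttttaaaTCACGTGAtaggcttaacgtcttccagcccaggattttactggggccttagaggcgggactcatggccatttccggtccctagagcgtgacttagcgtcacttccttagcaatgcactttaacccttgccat

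Both strands of windows from 250 bases before to 50 after the start site were searched. The open-centre form, which includes the core itself, was in windows of 6 of 15 ATP synthase genes (40%) and 2 of 19 V-ATPase genes (10.5%), beside 5.19% of 27025 genes. These 27025 were all genes with a window, whatever their TPM, and the share among abundant genes was not counted. The ATP synthase genes were Atp5c1, Atp5g2, Atp5g3, Atp5h, Atp5k and Atp5o. The CLEAR core was in windows of 0 of 15 ATP synthase genes and 3 of 19 V-ATPase genes (15.8%), namely Atp6v1a, Atp6v0d1 and Atp6v0e, beside 1.12% of all genes. The V-ATPase genes with the open-centre form were Atp6v1e1 and Atp6v0d1. The full CLEAR box, which contains the CLEAR core, was in 0 windows of either machine and in those of 0.37% of all genes. These are matches of letters, and binding was not measured. The 6 ATP synthase genes with the open-centre form had log2 fold changes from −0.33 to −0.10, and the 3 V-ATPase genes with the CLEAR core from −0.09 to 0.21. All fold changes are of TPM + 1, CerM over vehicle.

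In the F1 head, the alpha and beta subunits stayed within the spread of the libraries and the 3 central stalk subunits had log2 fold changes from −0.27 to −0.15. Atp5a1, the alpha subunit, had 723, 804 and 717 TPM in CerM and 706, 728 and 814 TPM in vehicle, so its log2 fold change was 0.00, with −0.21 to 0.21 as the 95% confidence interval. For Atp5b it was −0.03 (−0.21 to 0.14). The groups overlapped for both.

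Atp5e, the epsilon subunit at the foot of the central stalk, had 492, 511 and 437 TPM in CerM and 570, 568 and 602 TPM in vehicle. All CerM libraries lay below all vehicle libraries, with a log2 fold change of −0.27 ± 0.09 (SE), an unadjusted limma p of 0.0151 and an adjusted p of 0.989. Atp5c1, the gamma subunit that forms the rotating shaft, had 387, 401 and 396 TPM in CerM and 433, 435 and 445 TPM in vehicle (−0.15 ± 0.07). Its groups did not overlap either. Atp5d, the delta subunit beside epsilon, had 245, 239 and 210 TPM in CerM and 263, 261 and 243 TPM in vehicle (−0.15 ± 0.09), with one CerM library above the lowest vehicle library.

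The Fo membrane part held the lowest fold changes of ATP synthase. Genes of the peripheral stalk had log2 fold changes from −0.22 to −0.14, above that of Atp5e (−0.27). Atp5md encodes DAPIT, a small subunit linked to dimers of the enzyme, with means of 1155 ± 65.7 TPM for CerM and 1443 ± 92.3 TPM for vehicle (SD, n = 3 each). Its log2 fold change was −0.32 ± 0.09 (SE), with an unadjusted limma p of 0.00678 and an adjusted p of 0.989. Atp5h, subunit d of the peripheral stalk that holds the head still, had 843, 863 and 927 TPM in CerM and 1013, 1023 and 1019 TPM in vehicle (−0.22 ± 0.07). Its vehicle libraries had an SD of 5.21 TPM and lay above every CerM library.

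Atp5j2, subunit f of the membrane part, had 274, 292 and 291 TPM in CerM and 350, 325 and 313 TPM in vehicle (−0.20 ± 0.08), again with no overlap. Atp5l (subunit g), Atp5o (OSCP, which ties the stalk to the head) and Atp5pb (subunit b) also had groups that did not overlap, at −0.19, −0.15 and −0.14. For Atp5pb the gap was narrow, with the highest CerM library at 357.00 TPM and the lowest vehicle library at 357.71 TPM. Atp5k, subunit e, which with subunit g bends the membrane at enzyme dimers, had the largest SE of the ATP synthase genes, at 671, 659 and 506 TPM in CerM and 912, 762 and 607 TPM in vehicle (−0.30 ± 0.17). Atp5j (coupling factor F6) and Atp5mpl (the 6.8 kDa proteolipid) overlapped, at −0.20 and −0.11.

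The c ring is encoded by 3 genes, Atp5g1, Atp5g2 and Atp5g3, whose mature peptides are the same and whose import leaders differ. Atp5g3 had 768, 678 and 582 TPM in CerM and 713, 711 and 739 TPM in vehicle. Atp5g1 had 588, 534 and 545 TPM in CerM and 573, 553 and 633 TPM in vehicle. Atp5g2 was the minor gene, with 31.9, 24.7 and 33.3 TPM in CerM and 36.9, 33.3 and 43.1 TPM in vehicle. It had the most negative log2 fold change of ATP synthase, −0.33 ± 0.15 (SE, unadjusted limma p of 0.0629, adjusted p of 0.989). Of the c-ring TPM, Atp5g3 made up 53.4% ± 2.86 for CerM and 53.7% ± 1.32 for vehicle (SD, n = 3 each). The share of Atp5g2 was 2.39% ± 0.45 for CerM and 2.8% ± 0.24 for vehicle. These shares overlapped between the groups.

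Over the whole enzyme, 17 of 17 tested ATP synthase genes had a log2 fold change below 0 before rounding, 13 of 17 under quantile scaling and 15 of 17 with a coding length trend removed. Their median was −0.15, and −0.09 under quantile scaling. Among all tested genes 41.2% lay below 0 and the median was 0.03. The unadjusted p was below 0.05 for 4 genes, all lower, beside 1.62% of all tested genes lower and 1.07% higher. Without CerM replicate 1, and likewise without CerM replicate 3, it was so for 2. Other alternatives gave from 1 (coding length trend removed) to 10 (sample weights). The median was −0.15 over the 5 F1 genes and −0.20 over the 12 genes of Fo and the stalk. Groups did not overlap in 8 genes, all lower, beside the 4.04% of all tested genes and the 175 of 1480 abundant genes given above. In all, 16 of the 17 are at a mean of 100 TPM or more, a level at which 67 genes were lower and 2 higher at an unadjusted p below 0.05, and 65% lay below 0. For 15 of the 17 the 95% interval lay within 1.5-fold of TPM + 1. The second row named Atp5o was listed at 0 in every library and was not tested, and how reads were shared between both rows is unknown.

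**Figure D1:**
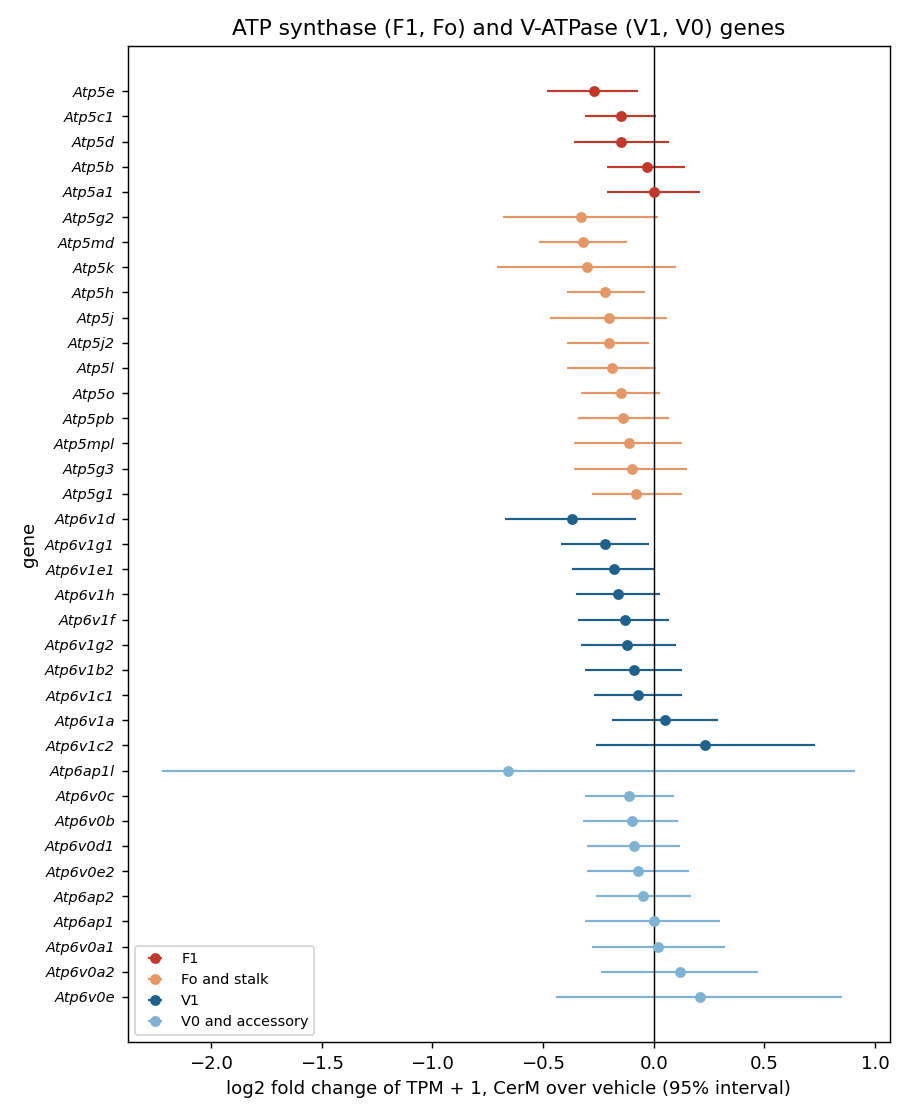
Log2 fold change of TPM + 1, CerM over vehicle, for the 37 tested genes, with 95% confidence intervals of the limma fit as bars. Points are coloured by part of the machine (F1, Fo and stalk, V1, V0 and accessory). All 17 ATP synthase points lie at or left of 0, and 15 of the 20 V-ATPase points do.

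The V1 head of the V-ATPase had 8 of 10 tested genes below 0, and its catalytic subunit was not among them. Atp6v1a, the catalytic A subunit, had 250, 284 and 241 TPM in CerM and 228, 251 and 271 TPM in vehicle (log2 fold change 0.05, interval −0.19 to 0.29). Atp6v1b2, the B isoform of brain, had 405, 480 and 405 TPM in CerM and 473, 440 and 456 TPM in vehicle (−0.09, −0.31 to 0.13). Both overlapped between groups, and CerM replicate 2 was the highest of the 6 libraries for each.

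Atp6v1d, the D subunit of the rotating shaft, had 235, 183 and 224 TPM in CerM and 305, 279 and 247 TPM in vehicle. Its groups did not overlap, and its log2 fold change was the lowest of the abundant members, −0.37 ± 0.13 (SE, unadjusted limma p of 0.0192, adjusted p of 0.989). Atp6v1e1, a peripheral stalk subunit, had 577, 603 and 571 TPM in CerM and 702, 655 and 634 TPM in vehicle (−0.18 ± 0.08). Its stalk partner Atp6v1g1 had 146, 138 and 138 TPM in CerM and 177, 156 and 159 TPM in vehicle (−0.22 ± 0.08). Neither overlapped between groups.

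Atp6v1h, the regulatory H subunit, did not overlap either, at 156, 156 and 142 TPM in CerM and 173, 169 and 165 TPM in vehicle (−0.16 ± 0.08). Atp6v1f, the F subunit of the shaft, and Atp6v1c1, which clamps head to membrane part, had overlapping groups at −0.13 and −0.07.

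In V0 and its accessory proteins, groups overlapped for all 10 tested genes. Atp6v0c, the main proteolipid of the rotor ring, was the most abundant member of either machine, with 1576, 1704 and 1454 TPM in CerM and 1729, 1655 and 1707 TPM in vehicle (−0.11 ± 0.09 SE). Atp6v0b, another ring proteolipid, had 383, 425 and 360 TPM in CerM and 438, 395 and 420 TPM in vehicle (−0.10 ± 0.09). Atp6v0d1, which joins ring and shaft, had −0.09 ± 0.09. These 3 had the smallest unadjusted limma p-values of V0, from 0.246 to 0.343, and overlapped between groups.

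Atp6ap1, an assembly factor that stays in the pump, had 345, 455 and 354 TPM in CerM and 354, 375 and 423 TPM in vehicle (0.00, interval −0.31 to 0.30). Atp6ap2, known as the prorenin receptor, had 199, 168 and 178 TPM in CerM and 197, 178 and 187 TPM in vehicle (−0.05, −0.26 to 0.17). For both genes the CerM libraries spanned a wider range than the vehicle libraries. Atp6ap1l, a gene named for its likeness to Atp6ap1, had 16.2 TPM in vehicle replicate 1 and 1.2 to 3.26 TPM in the other 5 libraries. Its log2 fold change turned on that library, and was −0.66 ± 0.67 with it and 0.17 without it.

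**Figure D2:**
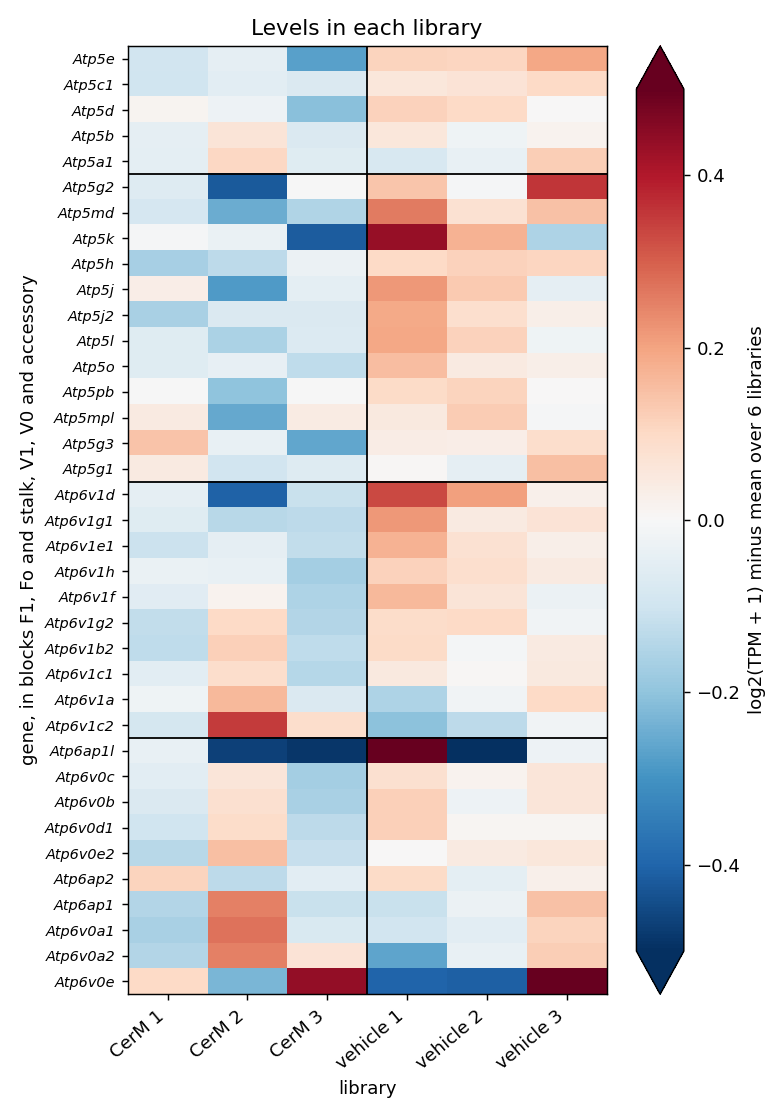
Deviation of log2(TPM + 1) from the mean of each gene across libraries, for the 37 tested genes in rows (blocks F1, Fo and stalk, V1, V0 and accessory) and the libraries in columns, CerM left of vehicle. Colours end at 0.5 on either side; CerM replicate 2 is above its mean in many V1 and V0 genes, among them Atp6v0a1 and Atp6ap1, and below it in most Fo genes.

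Most V-ATPase subunits have tissue-specific isoforms, and hippocampus held the set known from brain. Atp6v0a1, the a isoform of synapses, had 200, 270 and 212 TPM in CerM and 210, 216 and 242 TPM in vehicle, and Atp6v0a2, an isoform of Golgi and endosomes, had 16.9, 22.5 and 19.7 TPM in CerM and 15.4, 18.3 and 20.5 TPM in vehicle. Atp6v0a4, known from kidney, had 0.86, 0.23 and 0.26 TPM in CerM and 0.26, 0.90 and 0.09 TPM in vehicle. With Tcirg1, the a isoform of osteoclasts and of lysosomes, counted in, Atp6v0a1 made up 88.7% ± 1.28 of the a isoforms' TPM for CerM and 90.5% ± 1.05 for vehicle (SD over 3 libraries).

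Among the G isoforms, Atp6v1g2, which is known from neurons, had 740, 864 and 728 TPM in CerM and 860, 864 and 797 TPM in vehicle. It made up 84.6% ± 1.43 of G-isoform TPM in CerM and 83.7% ± 0.90 in vehicle, and Atp6v1g1 nearly all of the rest. Atp6v1g3, a kidney isoform, was at 0.04 TPM in CerM replicate 2 and listed at 0 in the other 5 libraries. Atp6v1b1, the B isoform of kidney and inner ear, had 0.19, 0.25 and 0.32 TPM in CerM and 0.06, 0.17 and 0.24 TPM in vehicle, far below Atp6v1b2.

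Of the other minor isoforms, Atp6v0d2 and Atp6v1e2 were as low, and Atp6v1c2 lay just above the TPM minimum (mean 1.18 TPM). Atp6v0d2 reached 0.05 TPM in CerM replicate 3 and was listed at 0 elsewhere, while Atp6v0d1 had 270, 309 and 265 TPM in CerM and 314, 291 and 292 TPM in vehicle. Atp6v1e2, known from testis, lay between 0 and 0.24 TPM in CerM and between 0.10 and 0.16 TPM in vehicle. Atp6v1c2 had 1.04, 1.76 and 1.30 TPM in CerM and 0.88, 0.98 and 1.14 TPM in vehicle, and its log2 fold change, 0.23 ± 0.21 (SE), was the highest of the V-ATPase. Its companion Atp6v1c1 had 275, 304 and 259 TPM in CerM and 296, 287 and 296 TPM in vehicle. Atp6v1fnb, named as a neighbour of Atp6v1f and not known as a subunit, was listed at 0 in all libraries.

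**Figure D3:**
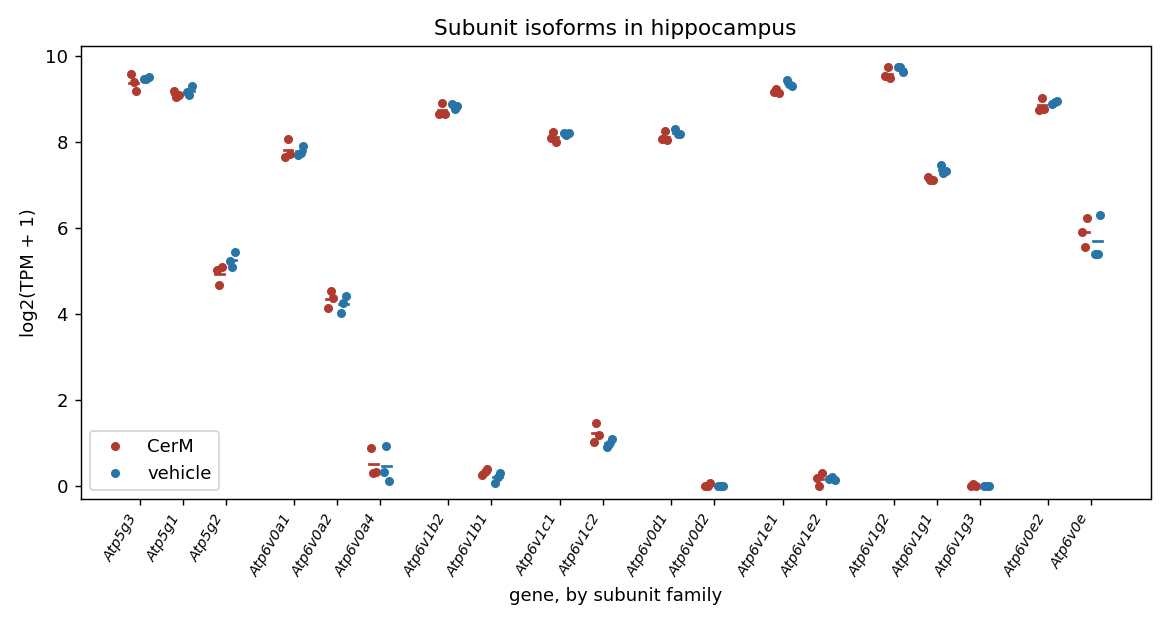
Log2(TPM + 1) of the subunit isoforms by family, each point a library and each short line a group mean, CerM left of vehicle for every gene. One isoform dominates in the B, C, d and E families, and the mean of Atp6v0a1, 225 TPM over the 6 libraries, stands above the 18.9 TPM of Atp6v0a2 and the 0.43 TPM of Atp6v0a4.

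One e isoform varied together with markers of another tissue. Atp6v0e had 58.96, 46.74 and 74.96 TPM in CerM and 41.39, 41.19 and 78.17 TPM in vehicle, so the same 3 libraries were high as for choroid plexus, the tissue that makes cerebrospinal fluid. The summed TPM of 8 choroid plexus markers was 9370, 311 and 11020 in CerM and 256, 267 and 15817 in vehicle, and all 8 markers were detected in every library. The log2 fold change of Atp6v0e, 0.21 ± 0.28 (SE), was −0.02 with the choroid plexus score as a covariate. Atp6v0e2, the e isoform enriched in brain, had 432, 527 and 439 TPM in CerM and 477, 490 and 495 TPM in vehicle (−0.07 ± 0.10). In bulk tissue, fewer cells of a type and less RNA per cell cannot be told apart.

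Over the V-ATPase, 15 of 20 tested genes lay below 0, beside 41.2% of all tested genes, and 14 under quantile scaling. The median of their log2 fold changes was −0.09. It was −0.16 without CerM replicate 2 and −0.05 without CerM replicate 3, and −0.03 under quantile scaling. The median was −0.12 over the 10 tested V1 genes and −0.06 over the 10 of V0 and its accessory proteins. Groups did not overlap in 4 genes, all lower and all in V1 (Atp6v1d, Atp6v1e1, Atp6v1g1 and Atp6v1h), beside 4.04% of all tested genes lower and 3.26% higher. The 4 are at a mean of 100 TPM or more, as are 16 of the 20. Of those 16, 14 lay below 0, beside 65% of the 1480 tested genes at that level. Among these 1480, 175 were lower and 4 higher without overlap, and 67 lower and 2 higher at an unadjusted limma p below 0.05. The unadjusted p was below 0.05 for 3 genes, all lower, beside 1.62% of all tested genes. That count was 5 without CerM replicate 2, 1 without CerM replicate 3, and 0 without vehicle replicate 1 or without vehicle replicate 2. It was 0 under quantile scaling, 1 without a variance trend or with either marker covariate, and 8 with sample weights. For 16 of the 20 the 95% interval lay within 1.5-fold of TPM + 1. The 6 members below the TPM minimum were Atp6v1b1, Atp6v1e2, Atp6v1g3, Atp6v0a4, Atp6v0d2 and Atp6v1fnb.

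Set against each other, ATP synthase lay lower than the V-ATPase by 0.06 in the median log2 fold change (−0.06, ATP synthase minus V-ATPase). It was 0.00 without CerM replicate 2, −0.11 without CerM replicate 1, −0.12 without CerM replicate 3 and between −0.09 and −0.07 without a vehicle library. The mean centred log2(TPM + 1) over ATP synthase genes was −0.04, −0.11 and −0.11 in CerM and 0.13, 0.07 and 0.07 in vehicle, with no overlap. Over V-ATPase genes without Atp6ap1l it was −0.07, 0.05 and −0.07 in CerM and 0.02, −0.01 and 0.07 in vehicle, and overlapped. Over all 1480 tested genes at a mean of 100 TPM or more it was −0.05, 0.06 and −0.08 in CerM and 0.00, 0.03 and 0.03 in vehicle, with CerM replicate 2 highest. The difference between the means of the 2 machines, −0.17 in CerM replicate 2, lay between −0.04 and 0.10 in the other 5 libraries. Without vehicle replicate 1 and CerM replicate 3, which stood apart in their markers, the medians were −0.16 for ATP synthase and −0.02 for the V-ATPase, and with the neocortex score as a covariate they were −0.15 and −0.06.

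The sums of TPM were read likewise. ATP synthase genes summed to 10101, 9744 and 9594 TPM in CerM and 11342, 10860 and 10807 TPM in vehicle, with no overlap. V-ATPase genes summed to 6622, 7316 and 6397 TPM in CerM and 7418, 7149 and 7254 TPM in vehicle, which overlapped. The ratio of the first sum to the second was 1.525, 1.332 and 1.5 in CerM and 1.529, 1.519 and 1.49 in vehicle, and CerM replicate 2 stood apart from the other 5 libraries.

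**Figure D4:**
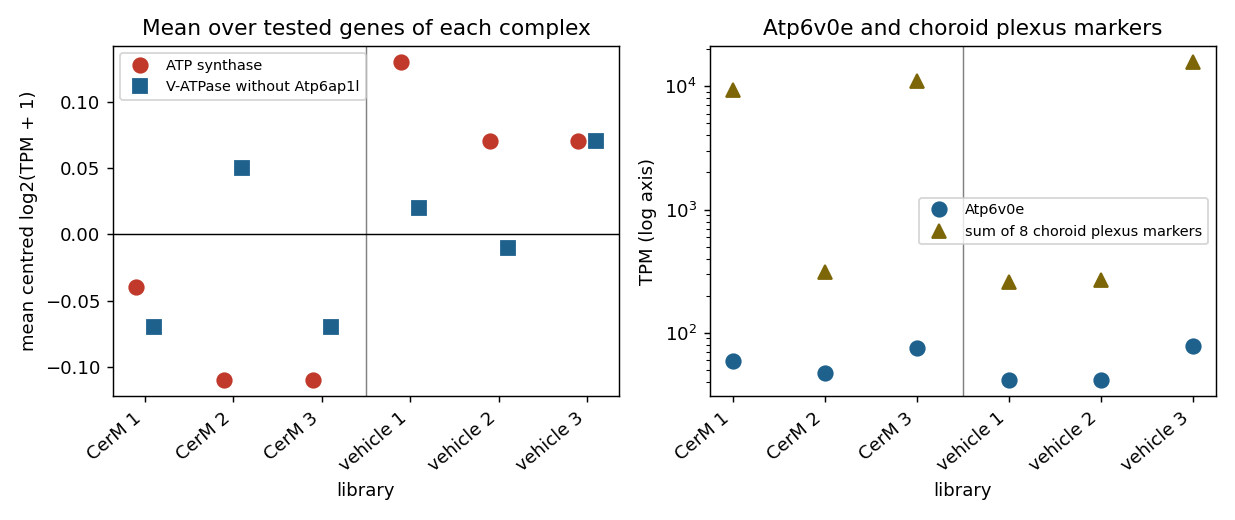
Left: mean centred log2(TPM + 1) over the 17 tested ATP synthase genes (circles) and over 19 V-ATPase genes without Atp6ap1l (squares) in each library. Right: TPM on a log axis of Atp6v0e (circles) and of the sum of 8 choroid plexus markers (triangles); CerM replicates 1 and 3 and vehicle replicate 3 are highest in both.

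Abundant genes of short coding length mostly had lower values in CerM, and 32 members of the 2 machines are among the abundant genes. Among 1480 tested genes at a mean of 100 TPM or more, 65% lay below 0 and the median log2 fold change was −0.05. Within that group the median was −0.18 for the 78 genes with a coding length of up to 300 bases, −0.12 for the 354 with 301 to 600 bases, −0.07 for the 259 with 601 to 900 bases, −0.03 for the 374 with 901 to 1500 bases and 0.02 for the 279 with 1501 to 3000 bases. The 37 tested members of the 2 machines were binned whatever their TPM level. In the same 5 bins of coding length their medians were −0.27 (5 genes), −0.13 (13 genes), −0.15 (6 genes), −0.07 (7 genes) and 0.01 (6 genes). Each bin was thinly filled, and the medians were not in steady order.

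Across genes, which are not independent replicates and come from the same 6 libraries, the log2 fold change and the log2 coding length had a Pearson r of 0.69 over 17 ATP synthase genes, 0.18 over 20 V-ATPase genes (0.30 without Atp6ap1l), 0.43 over 1417 abundant genes and 0.21 over all 13396 tested genes with a coding length. Coding length did not order every pair. Atp5md and Atp5mpl both code in 174 bases and stood at −0.32 and −0.11, and Atp6v1d, with 741 bases, was lower than any smaller V1 gene. With a trend on coding length removed from each library, the medians were −0.10 for ATP synthase and −0.05 for the V-ATPase, and Atp6v1d stood at −0.36, Atp5md at −0.16 and Atp5e at −0.10.

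**Figure D5:**
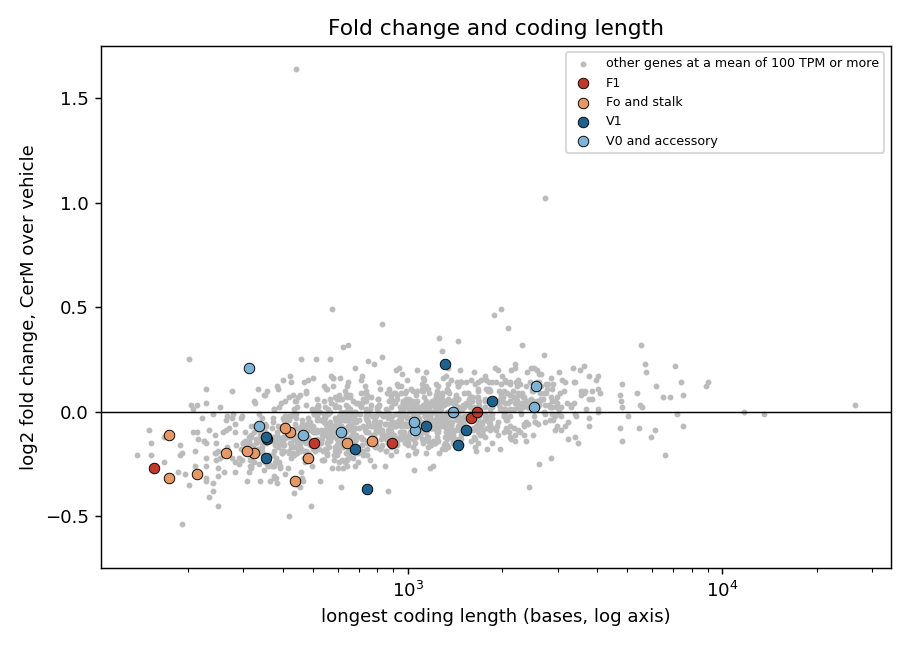
Log2 fold change, CerM over vehicle, against longest coding length in bases (log axis), for the tested genes of the 2 machines without Atp6ap1l (coloured) and other genes at a mean of 100 TPM or more (grey). Genes of up to 300 bases have medians of −0.27 (machines) and −0.18 (all genes at 100 TPM or more), and Atp6v1d at −0.37 is the lowest coloured point.

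Genes that work beside each machine were read from fixed lists. Of 18 tested partners of ATP synthase 14 lay below 0 (median −0.09), beside 41.2% of all tested genes. An unadjusted p below 0.05 was seen for 3, all lower, beside 1.62% of all tested genes. These were the assembly factor Tmem242 (−0.24 ± 0.08 SE), the cristae protein Micos10 (−0.33 ± 0.12) and Dmac2l (−0.53 ± 0.22), formerly named as a coupling factor of ATP synthase. The carriers that serve the enzyme lay nearer 0 than these 3, at −0.06 ± 0.07 for the phosphate carrier Slc25a3 and −0.11 ± 0.07 for the ADP/ATP carrier Slc25a4. Groups did not overlap in 4 partners, all lower, beside 4.04% of all tested genes lower and 3.26% higher. They were Tmem242, Micos10, Chchd3 and Slc25a4, the last by a narrow gap (highest CerM library 577.07 TPM, lowest vehicle library 577.49 TPM). Of the 2 subunits encoded in mitochondrial DNA, mt-Atp8 had 55601, 36694 and 64751 TPM in CerM and 46286, 45264 and 37724 TPM in vehicle, which overlapped. Its neighbour mt-Atp6 was listed at 0 in all 6 libraries. Their reading frames overlap, and how reads were assigned between them is unknown. The gene mt-Atp8 is one of the 18 tested partners and one of the 4 above 0, at 0.25.

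Of 22 tested partners of the V-ATPase, 11 lay below 0 (median 0.00), beside 41.2% of all tested genes. Limma gave 0 of the 22 an unadjusted p below 0.05, beside 1.62% of all tested genes lower and 1.07% higher. Tcirg1 was the highest, at 4.99, 10.3 and 10.8 TPM in CerM and 3.70, 6.40 and 4.71 TPM in vehicle (0.67 ± 0.30 SE). Dmxl2 and Wdr7, which help to assemble the pump on synaptic vesicles, had 0.11 and 0.08, and Tfeb had −0.01. Beside the same 41.2%, 2 of 18 lysosome genes (median 0.09) and 9 of 14 tested synaptic vesicle genes (median −0.03) lay below 0. Over the lysosome genes the mean centred log2(TPM + 1) was −0.04, 0.08 and 0.09 in CerM and −0.17, −0.12 and 0.16 in vehicle. It overlapped, and vehicle replicate 3 was the highest library. Slc17a7, the vesicular glutamate transporter, stood at −0.02 ± 0.09 and Syp, synaptophysin, at 0.00 ± 0.14. In these 3 lists no gene's groups were without overlap, beside 4.04% of all tested genes lower and 3.26% higher.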

How the data were processed

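Hippocampal RNA from 3 CerM and 3 vehicle libraries was analysed. Per the labels' protocols, TRIzol extraction and removal of DNA preceded TruSeq library preparation. HISAT2, StringTie, RSEM and the build GRCm39 are named, with no versions or roles, in the submitters' processing notes. The authors deposited TPM values with 2 decimals for 55414 genes. TPM totals ran from 993379 to 995403 per library, and each had 14546 to 15058 genes at 1 TPM or more. TPM keeps no depth, so the read number behind a value is unknown, and precision comes from 3 libraries per group. No 2 libraries were identical.

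Genes with a mean of at least 1 TPM entered a two-sided limma test (version 3.58.1, R 4.3.3) of log2(TPM + 1) that fits a variance trend, with Benjamini-Hochberg adjustment over all 14916 tested genes. The test was checked on simulated data with independent noise and larger changes than those of the members. The scale understates fold changes of low genes. Members and lists were chosen with earlier results of these data known, so lists are described by counts and medians with no p. Members given in every library were the catalytic, ring, isoform and accessory genes, the 3 smallest p in each part of a machine and the extremes of each machine; Atp5k and Atp6v1h were added after their values were seen. Coding lengths are the longest per gene in GENCODE vM21 and cover 89.8% of tested genes. Promoters come from RefSeq (GRCm38.p6), whose coordinates belong to another build than the authors'. Alternatives changed the pseudocount, TPM minimum, scaling, variance model, weights, replicate block, covariates and libraries. Python 3.11.15, pandas 2.3.3, numpy 2.4.6, scipy 1.17.1 and matplotlib 3.10.9 were also used.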

Additional observations from a re-analysis of the deposited data

How the results depend on the processing

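No member passed an adjusted p of 0.05 under any of the 20 alternatives, and medians ranged from −0.19 to −0.09 for ATP synthase and from −0.16 to −0.02 for the V-ATPase. The ATP synthase median was −0.09 under quantile scaling and −0.10 with the coding length trend removed. Genes called by limma numbered 1 with vehicle replicate 1 and CerM replicate 3 left out together, and 1 to 8 with 1 library left out. The coding length, choroid plexus and Atp6ap1l alternatives were chosen after seeing the data.

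Single genes changed sign as follows, and the cause was not tested. Quantile scaling gave Atp5a1 0.06, Atp5b 0.03, Atp5g1 0.00, Atp5g3 0.00 and Atp6ap1 0.06. Leaving out mitochondrial DNA genes gave Atp5a1 0.01 and Atp6ap1 0.01. The coding length trend gave Atp5g1 0.01, Atp5mpl 0.05, Atp6v1a −0.01, Atp6v0a1 −0.05 and Atp6v0e2 0.03. Sample weights gave Atp6v1a −0.02, Atp6v0a1 −0.02, Atp6ap1l 0.32 and Atp6ap2 0.01, and median-ratio scaling gave Atp6v0a1 −0.01. Leaving out vehicle replicate 1 and CerM replicate 3 gave Atp5b 0.01, Atp6v0e −0.11, Atp6ap1l 0.25 and Atp6ap2 0.00. The choroid plexus covariate gave Atp6v0e −0.02 and Atp6ap1 0.01, and the neocortex covariate gave Atp6ap1l 0.02. With 1 library left out, values ran from −0.05 to 0.06 for Atp5a1, −0.20 to 0.00 for Atp5g3, −0.02 to 0.11 for Atp6v1a, −0.11 to 0.11 for Atp6v0a1, −0.13 to 0.07 for Atp6ap1, −1.31 to 0.17 for Atp6ap1l and −0.11 to 0.01 for Atp6ap2.

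Libraries with the same replicate number had correlations of 0.008, 0.196 and 0.222 in their deviations. For CerM and vehicle libraries with different numbers they ran from −0.207 to 0.065. Each CerM library correlated most with the vehicle library of its own number, though for CerM replicate 1 only by 0.008 against 0.004. Vehicle replicate 1 correlated most with CerM replicate 2 (0.065). The main test did not take the numbers as pairs, and whether they mark pairs was not tested. With the replicate block 0 genes were called, the medians were −0.15 and −0.09, and 5 ATP synthase and 1 V-ATPase genes had an unadjusted p below 0.05. TPM values carry no read depth, which limits what can be said of the lowest isoforms.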

Other observations

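Atpif1, which encodes the inhibitor that stops ATP synthase from running backwards, lies outside the symbols chosen above and was picked after its values were seen. It had 598, 637 and 653 TPM in CerM and 838, 727 and 710 TPM in vehicle, with no overlap and a log2 fold change of −0.27 ± 0.09 (SE, limma adjusted p of 0.989).

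Ratios of single genes, picked after their values were seen, set one subunit against a catalytic one within each library, as a description only. Atp5md over Atp5b was 1.052, 0.872 and 1.026 in CerM and 1.245, 1.159 and 1.182 in vehicle, and did not overlap. These 2 genes differ in coding length, 174 bases for Atp5md and 1587 bases for Atp5b. With the coding length trend removed, their log2 fold changes were −0.16 and −0.08, against −0.32 and −0.03 in the main fit. Atp6v1d over Atp6v1a was 0.939, 0.643 and 0.932 in CerM and 1.338, 1.114 and 0.909 in vehicle, and overlapped through vehicle replicate 3.

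The 9 rows with -ps names reached at most 1.41 TPM in any library, and 4 of them were listed at 0 throughout.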
